A study of Mus musculus with 31 samples.

Results

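The stretch of mouse chromosome 5 around Mlxipl, the gene disrupted in both knockout lines of this study, was examined in liver by distance from that gene. Its members were all probes of the deposited expression table whose mm9 coordinate had its midpoint between 115.6 and 155.6 Mb of chromosome 5, that is 20 Mb on either side of a point at 135.6 Mb beside Mlxipl, with the probes named Mlxipl left out. This gave 876 of the 36057 probes of the table, under 566 gene names. Distances are given as the midpoint minus that point, so that a negative distance lies on the proximal (centromeric) side and a positive distance on the distal side. The array design held 1230 probes in the window, and the counts below describe the 876 that passed an intensity filter, 681 on at least 26 of the 31 arrays and 195 only through 6 or more arrays of 1 group. For 55 probes the array gives a genome position in place of a gene name, and 738 probes carried a RefSeq symbol.

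Male C57BL6/J mice were fasted for 24 h and refed for 18 h with food and water containing 20% glucose, and their hepatic RNA was read on one-color Agilent arrays. There were 7 total ChREBP-KO mice (Mlxipl-null, lacking ChREBPα and ChREBPβ), 8 WT mice of that line, 8 ChREBPβ-deficient mice and 8 WT mice of the ChREBPβ line. The ChREBPβ line carried a CRISPR/Cas9 deletion of the exon specific to ChREBPβ, made by electroporation of one-cell embryos and studied from F2 onwards, and both deficiencies were present in all tissues. How the Mlxipl-null allele was made and how far it was backcrossed is not given in the sources used here, the labels give no age, and which founder a ChREBPβ-deficient mouse descended from is not stated. Each array was taken as 1 mouse, so that the p-values measure the spread between these samples.

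ChREBP is a glucose-responsive transcription factor that dimerises with Mlx, binds paired E boxes known as carbohydrate response elements and drives glycolytic and lipogenic genes in the liver. ChREBPβ is a shorter isoform made from an alternative promoter of the same gene. Mlxipl sits among genes whose human counterparts are lost in Williams-Beuren syndrome, with the Oas antiviral genes farther out on the proximal side and the Cyp3a cytochromes P450 farther out on the distal side. Genes near a targeted gene are inherited together with it, and the levels of the neighbours are therefore given by distance.

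The probes on which the findings around Taf6 and Por rest are shown by the first 30 of their 60 bases, 5′ to 3′ as the scanner files give them, because in both places probes of 2 genes on opposite strands lie within 1 kb of each other. No letter is in capitals, since no part of these probes was singled out. In mm9 the Taf6 probes lie at chr5:138621376-138621435 and chr5:138619873-138619932 on the minus strand, and the Ap4m1 probes at chr5:138621441-138621500 and chr5:138619700-138619759 on the plus strand. Por was read at chr5:136211116-136211175 on the plus strand and Tmem120a at chr5:136211518-136211577 on the minus strand. Whether a probe lies in an exon, an intron or a UTR was not determined, since no mm9 annotation was used here.
Taf6 A_55_P2722200: gccatatacttgtttgcaaagcattctacc
Taf6 A_55_P2758166: ggaggaaggaggaaaggttttccccagtga
Ap4m1 A_52_P634950: gttcaattcccagcagcataacaacaaaaa
Ap4m1 A_51_P393067: tacgtaattcggatttgaagctccccaagc
Por A_51_P207921: ggtgcagccccaacatgtgattttgaatga
Tmem120a A_51_P333349: gaacaagaaggactgagctagatctgatgc

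Promoters of the neighbourhood were searched for the E box CACGTG, which reads the same on both strands, in the 250 bases before each RefSeq transcription start (GRCm38.p6). The letters occurred in 43 of 432 promoters of window members (9.95%) and in 1978 of 32851 promoters of all genes (6.02%). Window members had passed the intensity filter in liver, whereas the promoters of all genes were not restricted in this way. The shares therefore differ in more than location, and an excess of the motif in this region was not tested. The longer form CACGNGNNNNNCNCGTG, with both E boxes in place, was in 0 of the 432 and in 13 of all promoters (0.0396%), among which overlaps with the shorter motif were counted under both. Among 33 genes singled out below for their differences 23 had a promoter in the table, and 3 of them (Znhit1, Lamtor4 and Gm15408) held CACGTG. Another Znhit1 promoter, at chr5:136986905-136987154 on the minus strand, did not hold it. The promoters with the motif are printed with it in capitals. They are Znhit1 from chr5:136987960-136988209 on the minus strand, Lamtor4 from chr5:138255232-138255481 and Gm15408 from chr5:149006712-149006961, both on the plus strand, all in GRCm38.p6.
Znhit1: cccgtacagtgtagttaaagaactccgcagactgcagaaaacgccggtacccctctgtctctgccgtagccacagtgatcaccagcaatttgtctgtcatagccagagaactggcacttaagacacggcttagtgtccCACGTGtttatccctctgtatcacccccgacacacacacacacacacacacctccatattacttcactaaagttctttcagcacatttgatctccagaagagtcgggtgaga
Lamtor4: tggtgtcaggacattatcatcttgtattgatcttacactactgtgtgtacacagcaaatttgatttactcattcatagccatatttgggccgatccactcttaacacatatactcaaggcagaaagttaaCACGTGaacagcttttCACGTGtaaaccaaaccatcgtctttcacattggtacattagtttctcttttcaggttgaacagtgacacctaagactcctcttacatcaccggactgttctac
Gm15408: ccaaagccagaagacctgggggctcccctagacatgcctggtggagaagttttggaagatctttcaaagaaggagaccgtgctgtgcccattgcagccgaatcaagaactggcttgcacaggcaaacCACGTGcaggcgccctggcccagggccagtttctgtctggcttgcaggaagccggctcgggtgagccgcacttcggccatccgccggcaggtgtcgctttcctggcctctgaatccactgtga

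The arrays resembled each other and held liver RNA. Between 34131 and 38612 spots per array were well above background, pairs of arrays correlated at r = 0.98 to 0.999 across probes, and the summed signal of 11 hepatocyte markers spanned 21.52 to 21.65 on the log2 scale over all 31 arrays. Markers of exocrine pancreas (8 of a list of 16 were measured) had a mean log2 signal above 9 on 4 arrays, those of total ChREBP-KO replicate 5 (9.25) and of total-line WT replicates 2 (11.08), 7 (9.82) and 8 (9.95). Stellate and endothelial markers reached a summed log2 signal of 15.92 in 1 total ChREBP-KO mouse against at most 15.02 in the other groups. Red blood cell markers were at 17.69 to 18.79 in the total line and at 16.72 to 17.81 in the ChREBPβ line. Of 8 adipocyte markers 7 were measured, and their summed log2 signal separated total ChREBP-KO mice (17.33 to 17.70) from their WT mice (16.31 to 17.10), with 16.52 to 17.57 in the ChREBPβ line. Of these Car3, a carbonic anhydrase that hepatocytes also make, was called, higher on all 3 probes (0.79 to 2.34), and the other 6 were not. The part of these signals in the results below was not tested, beyond leaving out the 4 arrays with pancreas markers or the pair with the most stellate and endothelial signal (total ChREBP-KO replicates 1 and 4). In whole liver, fewer cells of a type and less RNA per cell cannot be told apart.

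Mlxipl itself was read by 3 probes. At chr5:135613705-135613764 (A_55_P2119957) the lowest, median and highest log2 signals were 13.89, 14.11 and 14.30 in total ChREBP-KO mice against 15.14, 15.25 and 15.48 in WT mice of that line. In ChREBPβ-deficient mice they were 14.40, 14.64 and 14.84 against 14.88, 15.06 and 15.33. Neither knockout overlapped its WT group. The signal fell by 1.16 ± 0.07 (SE) in total ChREBP-KO mice (adjusted p = 8.05e-13) and by 0.45 ± 0.07 in ChREBPβ-deficient mice (adjusted p = 0.0152), on the log2 scale. A_55_P2119957 was the 1 probe of the whole array called in the ChREBPβ line. No probe was called in that line with slide or replicate number as a fixed block or with only the 2 groups compared. The same held without the 4 arrays with pancreas markers, and without knockout replicate 5 or 6 or WT replicate 6 or 7 of that line. At an adjusted p under 0.05 alone, the remaining settings called 1 or 2 probes. The probe at chr5:135598483-135599113 differed by -0.59 ± 0.15 in the total line (adjusted p = 0.00313) and by -0.46 ± 0.15 in the ChREBPβ line (adjusted p = 0.909), and that at chr5:135614195-135614252 by -0.05 ± 0.06 (adjusted p = 0.603) and -0.06 ± 0.06 (adjusted p = 1.0). All 3 stayed above background on every array, and whether they lie in a deleted part is not given in the sources used here.

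Across the window the knockout of both ChREBP isoforms was accompanied by about as many changes as elsewhere in the genome. At an adjusted p under 0.05 (limma over all probes) 260 of 876 probes (29.7%) were called, 141 higher and 119 lower in total ChREBP-KO mice, beside 29.1% of all 36059 probes tested (14.5% higher and 14.6% lower). With a difference of at least 1.5-fold as well, 54 of 876 (6.16%) were called, beside 6.08%. For 61 of the 876 (6.96%) the 7 knockout mice and the 8 WT mice did not overlap, beside 7.4% of all probes, and for 34 (3.88%) the 7 knockout mice lay beyond all 24 other mice, beside 2.95%. The median absolute log2 difference was 0.12 in the window and 0.13 over all probes. By gene, 204 of 566 names had a called probe (110 higher, 97 lower, 3 of them in both directions), beside 33.9% of 23967 names on the array. Across the 876 probes, which share the same mice, the absolute difference and the absolute distance from Mlxipl had correlations near 0 (rho = -0.01, r = 0.01).

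**Figure D1:**
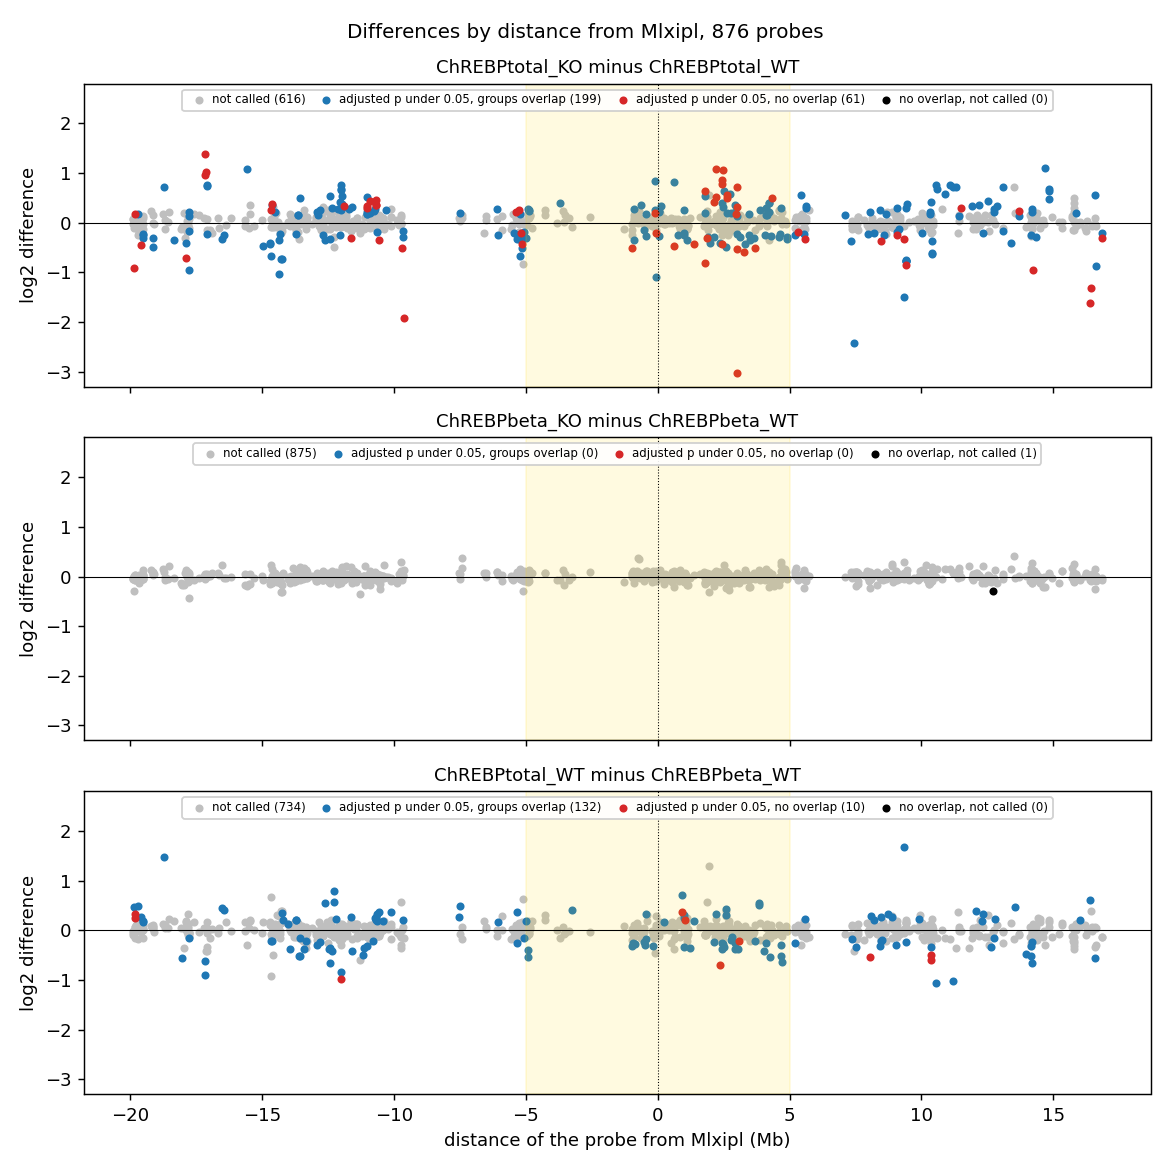
Log2 difference of each of the 876 probes (y axis) against its distance from the 135.6 Mb point beside Mlxipl in Mb (x axis), in 3 panels for total ChREBP-KO against WT, ChREBPβ-deficient against WT, and the 2 WT groups against each other. Grey points were not called, blue points were called with overlapping groups, red points were called without overlap (61, 0 and 10 in the 3 panels), and a black point did not overlap without being called. The yellow band is the closest 5 Mb, and the lowest point of the total line is Taf6 at -3.02.

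The closest 5 Mb held 250 probes and 167 gene names, of which 87 probes (34.8%; 49 higher, 38 lower) and 68 names were called in total ChREBP-KO mice. Within 1 Mb 23 of 73 probes were called (31.5%; 12 higher, 11 lower) and 4 did not overlap (5.48%). Most of the probes without overlap lay on the distal side between 1 and 5 Mb, a span joined from adjacent bins after their values were seen. There 59 of 153 probes were called (38.6%; 33 higher, 26 lower), 21 did not overlap (13.7%), and for 18 (11.8%) all knockout mice lay beyond all 24 other mice. That last share was 2.95% over all probes and 2.42 to 4.01% over the 20 chromosomes taken singly, with 3.37% on chromosome 5 as a whole. The 18 probes carried 14 gene names. Each chromosome held 950 to 2934 probes, so the range over chromosomes does not show how far a span of 153 probes strays. No spans of like size were compared. On the proximal side between 1 and 5 Mb, where the table holds only 24 probes, 5 were called and none was without overlap. From 5 to 20 Mb 173 of 626 probes were called (27.6%) and 14 (2.24%) lay beyond all other mice, and on the rest of chromosome 5 27.6% of 1323 probes were called.

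**Figure D2:**
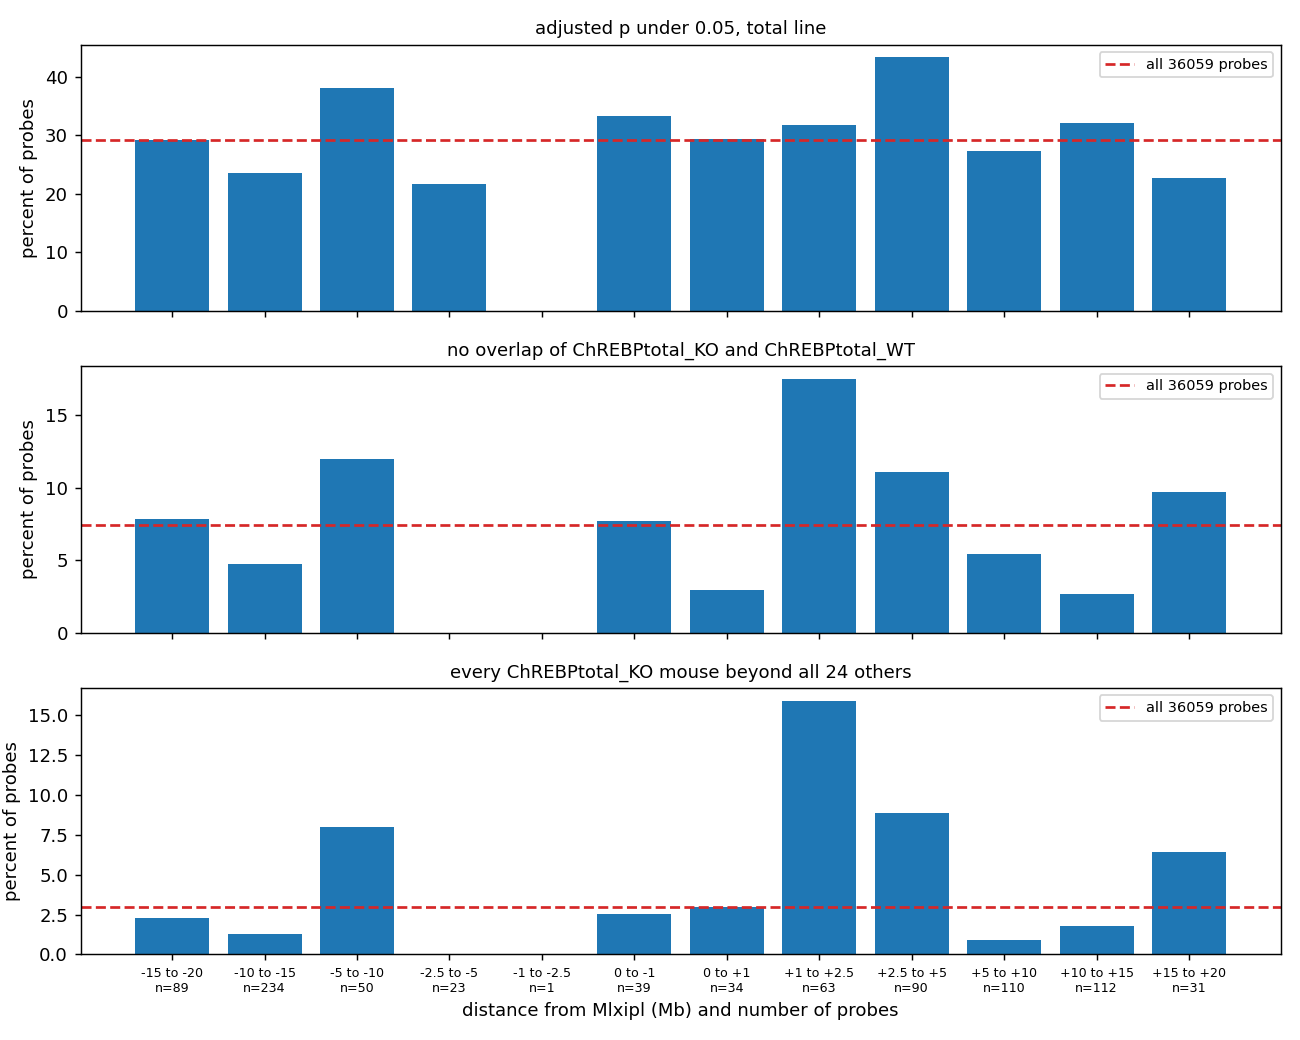
Percent of probes (y axis) in bins of distance from Mlxipl in Mb (x axis, proximal to distal) that were called in total ChREBP-KO mice, that did not overlap between knockout and WT, and for which the knockout lay beyond all 24 other mice. Dashed lines give the same share over all 36059 probes. The share beyond all other mice is 15.9% of 63 probes from 1 to 2.5 Mb and 8.89% of 90 probes from 2.5 to 5 Mb on the distal side, against 2.94% of 34 probes in the first distal Mb.

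Nearest to Mlxipl, Vps37d had the largest difference among the Williams-Beuren neighbours. Of 26 genes listed for this interval 25 were measured by 41 probes. In total ChREBP-KO mice 12 genes (48%, beside 33.9% of gene names on the array) and 34.1% of the probes (beside 29.1%) were called, 8 genes with a higher and 5 with a lower probe. Their median difference was 0.08 beside 0.01 over all probes. Vps37d, a subunit of the ESCRT-I sorting complex whose probe lies at -0.05 Mb (chr5:135548824-135548883, minus strand), read 6.16, 6.51 and 7.28 (lowest, median, highest) in total ChREBP-KO mice and 7.12, 7.76 and 8.12 in WT mice. The knockout replicates 1 (7.28) and 4 (7.18) lay above the lowest WT mouse, and the other 5 lay below all WT mice. The signal fell by 1.1 ± 0.13 (adjusted p = 2.14e-07). In the ChREBPβ line it read 7.18 to 7.51 in knockout and 7.30 to 7.60 in WT mice, a difference of -0.09 (95% interval -0.36 to 0.17).

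The other called genes of that interval differed by -0.35 to 0.35 on the log2 scale. Higher were Abhd11, a mitochondrial hydrolase (0.26 and 0.20 on its 2 probes, the latter without overlap at 12.01 to 12.29 against 11.93 to 11.98, adjusted p = 0.000692), Bcl7b, a subunit of BAF chromatin remodellers (0.23, 1 of 3 probes), Stx1a, a SNARE of synaptic exocytosis (0.23, adjusted p = 0.0305), and the transcription factor gene Gtf2i (0.28, adjusted p = 0.00496). Lower were Wbscr22 (Bud23), a methyltransferase of ribosomal RNA (-0.20 ± 0.06, 11.15 to 11.36 against 11.36 to 11.57 without overlap), the translation factor gene Eif4h (-0.14) and Gtf2ird2 (-0.35 on 1 probe). Tbl2, next to Mlxipl at 0.04 Mb, was called in opposite directions by 2 probes (0.20 and -0.26), the former at 0.16 (adjusted p = 0.0573) without the 4 arrays with pancreas markers. Several calls rested on few mice. Fzd9, a Wnt receptor, was at 0.33 (adjusted p = 0.0164), at 0.22 (adjusted p = 0.0552) without knockout replicate 5 and at 0.15 (adjusted p = 0.293) without the 4 arrays with pancreas markers. Clip2, a microtubule-binding protein, was at 0.35 (adjusted p = 0.00922), at 0.18 (adjusted p = 0.135) without knockout replicates 1 and 4 and at 0.28 (adjusted p = 0.071) without those 4 arrays. Limk1, a cofilin kinase, was at 0.18 (adjusted p = 0.041), and 6 mice each ended its call when left out (lowest 0.14, adjusted p = 0.116, without knockout replicate 7), as did the 4 arrays together (0.19, adjusted p = 0.0848). Stx1a lost its call without knockout replicate 2 or 4 or WT replicate 2, 4 or 6 (0.20 to 0.22), without knockout replicates 1 and 4 together (0.18, adjusted p = 0.136) and without the 4 arrays (0.25, adjusted p = 0.0575). Eif4h lost it without the 4 arrays (-0.12, adjusted p = 0.0893). With slide as a fixed block the calls of Bcl7b (0.16, adjusted p = 0.076), Limk1 (0.13, adjusted p = 0.223), Stx1a (0.22, adjusted p = 0.0684) and Eif4h (-0.12, adjusted p = 0.0577) ended.

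Outside the listed interval but within 1 Mb, Gatsl2, Por and Tmem120a carried the clearest differences. Gatsl2 (Castor2, of the arginine sensor family that acts on mTORC1), at -0.98 Mb, read 8.41, 8.86 and 9.0 in total ChREBP-KO and 9.10, 9.23 and 9.58 in WT mice, without overlap, and fell by 0.51 ± 0.10 (adjusted p = 0.000215). Its other probe was at -0.24 (adjusted p = 0.061). Por, the reductase that passes electrons to microsomal cytochromes P450, read 13.44, 14.02 and 14.28 in total ChREBP-KO mice against 12.80, 13.06 and 13.73 in WT mice, and the groups overlapped only through WT replicate 2 (13.73). It rose by 0.81 ± 0.20 (adjusted p = 0.00244). Tmem120a, a membrane protein of the nuclear envelope read 402 bases away on the other strand (the sequences are given above), was at 11.67, 11.79 and 12.01 against 12.17, 12.25 and 12.54, without overlap, and fell by 0.48 ± 0.07 (adjusted p = 1.13e-05). In ChREBPβ-deficient mice Por differed by -0.22 (95% interval -0.61 to 0.18) and Tmem120a by -0.01 (-0.16 to 0.13). Abhd11os, antisense to Abhd11, was called at 0.83 ± 0.28 (adjusted p = 0.0246), with knockout replicate 5 at 10.03, and stood at 0.43 (adjusted p = 0.0261) without that mouse. The call ended without knockout replicates 1 and 4 (0.82, adjusted p = 0.0613), with slides fitted as a block (1.02, adjusted p = 0.0556) and with only the 2 groups compared in the fit (adjusted p = 0.109). Ywhag, of the 14-3-3 family (-0.25), both probes of Lrwd1 (-0.24 and -0.21), Gm10369 (-0.26) and Rasa4 (0.26, adjusted p = 0.0464) were also called. Rasa4 lost its call when any of 19 arrays was left out (largest adjusted p = 0.119, without knockout replicate 7), Gm10369 without knockout replicate 6 (-0.21, adjusted p = 0.0564) and 1 Lrwd1 probe without knockout replicate 4 (-0.18, adjusted p = 0.0504). Without knockout replicates 1 and 4 together Rasa4 (0.22, adjusted p = 0.145), Gm10369 (-0.24, adjusted p = 0.0671) and both Lrwd1 probes (-0.17 and -0.15, adjusted p = 0.0796 and 0.121) were not called, nor was Rasa4 without the 4 arrays with pancreas markers (0.27, adjusted p = 0.111). The slide block ended the calls of Rasa4, Gm10369 and 1 Lrwd1 probe (adjusted p = 0.141, 0.0738 and 0.0637). The same probes of Lrwd1, Gm10369 and Rasa4 were also called between the 2 WT groups, in the opposite direction. Total-line WT mice differed from those of the ChREBPβ line by 0.31 and 0.25 for Lrwd1, 0.32 for Gm10369 and -0.34 for Rasa4. The slide block ended each of these WT calls.

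The remaining 32 gene names within 1 Mb, read by 42 probes, were not called in total ChREBP-KO mice, with differences from -0.14 to 0.24. They included the chromatin remodeller Baz1b (-0.01 and 0.19), Gtf2ird1 (4 probes), the elastin gene Eln, the claudins Cldn3 and Cldn4, Rfc2, Nsun5, Pom121, Hip1, the mitochondrial malate dehydrogenase gene Mdh2 (0.07) and the small heat shock gene Hspb1 (0.07).

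Between 1 and 5 Mb on the distal side, a run of genes from Cux1 to Zfand2a differed without overlap, the larger ones Ephb4, Agfg2, Mospd3, Ap4m1 and Mepce upwards and Taf6, Zfp157, Fam20c and Znhit1 downwards. The span opened with Cux1, a homeobox transcription factor at 1.36 Mb, of whose 6 probes 2 were called. The first read 7.13, 7.36 and 7.45 in total ChREBP-KO mice against 7.54, 7.76 and 8.06 and fell by 0.44 ± 0.07 (adjusted p = 8.86e-06), the other was at -0.35 (adjusted p = 0.00124). At 1.81 Mb the position-named probe chr5:137392195-137426421_F rose by 0.64 ± 0.09 (5.32, 5.42 and 5.87 against 4.64, 4.88 and 5.16) and its neighbour chr5:137411861-137413010_F fell by 0.82 ± 0.11 (5.30, 5.59 and 5.66 against 6.18, 6.35 and 6.63), both without overlap. In WT mice the signals of chr5:137392195-137426421_F were as low as those described below as close to background for Auts2. Znhit1, a subunit of the SRCAP remodeller with a promoter printed above, read 13.29, 13.34 and 13.40 against 13.50, 13.68 and 13.77 and fell by 0.31 ± 0.05 (adjusted p = 6.81e-06). Srrt, which acts in RNA processing, read 8.38, 8.58 and 8.74 against 7.95, 8.21 and 8.33 and rose by 0.43 ± 0.07 (adjusted p = 1.85e-05).

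Ephb4, a receptor for ephrin-B ligands at 2.22 Mb, had the smallest adjusted p of the window. Its main probe read 10.28, 10.40 and 10.67 in total ChREBP-KO mice and 9.12, 9.38 and 9.71 in WT mice of that line. In the ChREBPβ line it read 9.12, 9.39 and 9.64 in knockout and 9.07, 9.25 and 9.47 in WT mice. All total ChREBP-KO mice thus lay above the other 24, a rise of 1.08 ± 0.08 (adjusted p = 3.32e-11) beside 0.11 (95% interval -0.06 to 0.27) in the ChREBPβ line. The second probe rose by 0.52 ± 0.10, also beyond all other mice, and the third (A_55_P2926741) was not called (0.14, adjusted p = 0.0594).

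Farther on, Mospd3, Agfg2 and Mepce behaved likewise. Mospd3 rose on both probes, by 0.77 ± 0.07 (11.40, 11.57 and 11.73 against 10.64, 10.82 and 10.93) and by 0.87 ± 0.09 (adjusted p = 1.36e-08). Agfg2, of the ArfGAP family, read 11.83, 12.11 and 12.23 against 10.58, 10.96 and 11.41 and rose by 1.05 ± 0.10 (adjusted p = 2.65e-09), with 0.63 ± 0.12 on an overlapping probe. Mepce, the enzyme that caps 7SK RNA, rose by 0.50 ± 0.06 (12.18, 12.38 and 12.51 against 11.67, 11.88 and 12.03) and by 0.56 ± 0.08 on its 2 probes. In all of these the knockout mice lay above all 24 other mice, except on the overlapping Agfg2 probe. In the ChREBPβ line the 5 non-overlapping probes of Agfg2, Mospd3 and Mepce differed by -0.05 to 0.06. Gm7285, read beside Mospd3, was not well above background on any of the 7 knockout arrays and is given no fold (4.30 to 4.76 in knockout, 4.81 to 5.20 in WT mice).

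**Figure D3:**
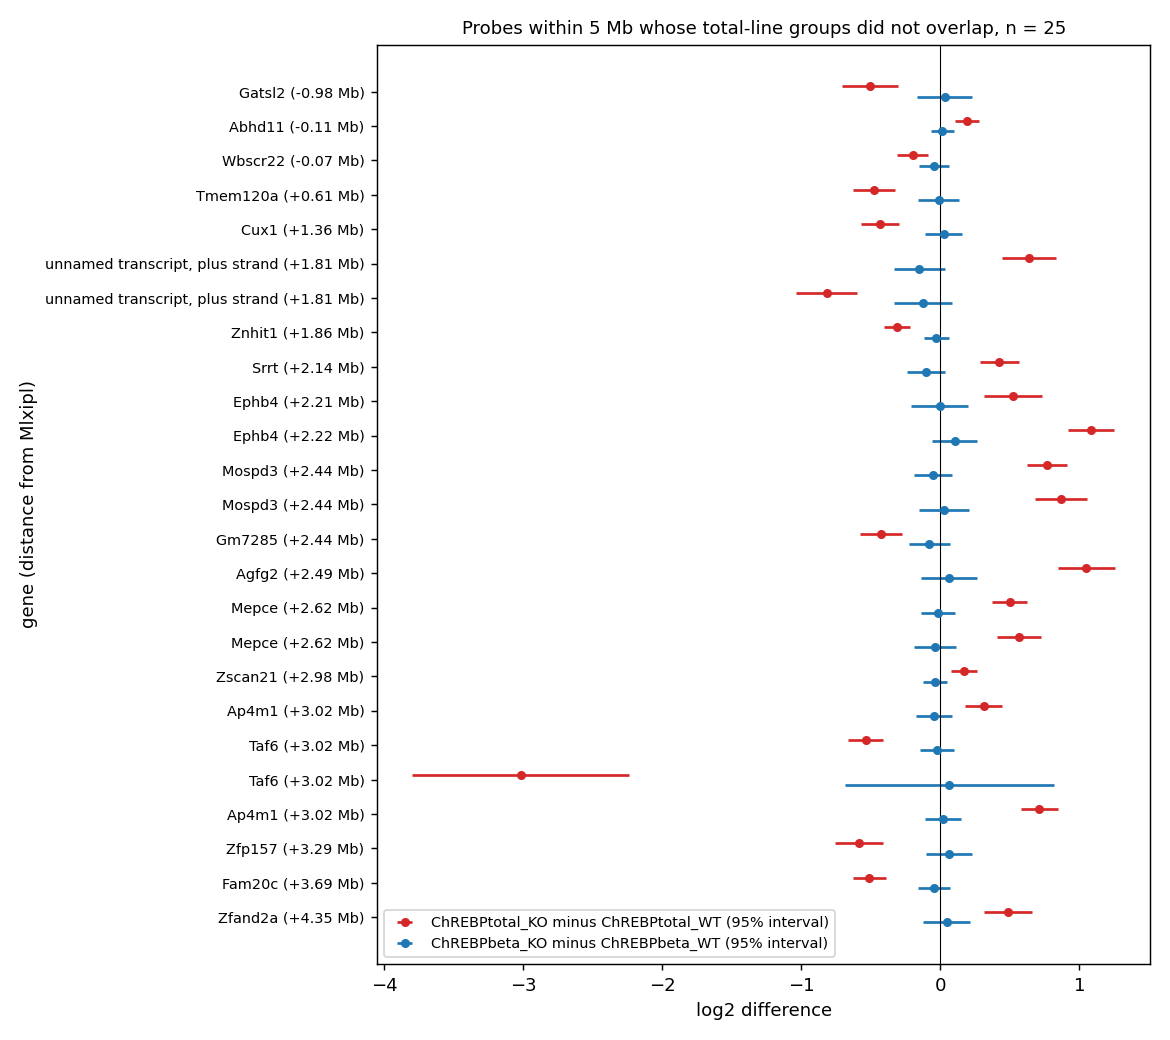
Log2 difference between knockout and WT mice (x axis) with its 95% confidence interval for the 25 probes of the closest 5 Mb that did not overlap in the total line, ordered by position along chromosome 5 (y axis, with distance in Mb). One colour stands for the total line and the other for the ChREBPβ line, whose intervals all include 0 while those of the total line do not. Gm7285, not well above background in total ChREBP-KO mice, is included for its position only.

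Taf6 and Ap4m1, at 3.02 Mb, were the strongest opposed pair of the window. Taf6, a subunit of the general transcription factor TFIID, read 4.98, 4.98, 5.01, 5.10 and 5.12 in 5 total ChREBP-KO mice (replicates 1, 4, 2, 6 and 8) on the probe A_55_P2722200, and 8.36 and 8.47 in replicates 5 and 7. The 24 other mice read 8.79 to 9.26. The knockout mice therefore fell into 2 levels, 5 near background (6 of the 7 arrays were above it) and 2 slightly below the WT range. The mean difference was -3.02 ± 0.38 (adjusted p = 3.72e-07), beside 0.07 (95% interval -0.69 to 0.82) in the ChREBPβ line. The fit pools the spread over all 4 groups, so the 2 levels in total ChREBP-KO mice widen the interval of the ChREBPβ line. The mice of that line read only 9.01 to 9.26. On the other Taf6 probe the same replicates 5 and 7 were the highest of the knockout mice (11.25 and 11.28, with 10.84 as the lowest) against 11.50 to 11.61 in WT mice, and the signal fell by 0.54 ± 0.06 (adjusted p = 5.11e-08).

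Ap4m1 encodes the mu subunit of the AP-4 adaptor complex and is read on the opposite strand, 65 and 173 bases from the Taf6 probes. It read 8.39, 8.66 and 8.78 against 7.81, 7.92 and 8.02 on A_52_P634950 and rose by 0.71 ± 0.07 (adjusted p = 1.08e-09), with the knockout above all other mice. On A_51_P393067 it read 7.50, 7.61 and 7.63 against 7.18, 7.30 and 7.38 and rose by 0.31 ± 0.07 (adjusted p = 0.000454). In ChREBPβ-deficient mice the 2 probes differed by 0.02 (95% interval -0.11 to 0.15) and -0.05 (-0.18 to 0.08).

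**Figure D4:**
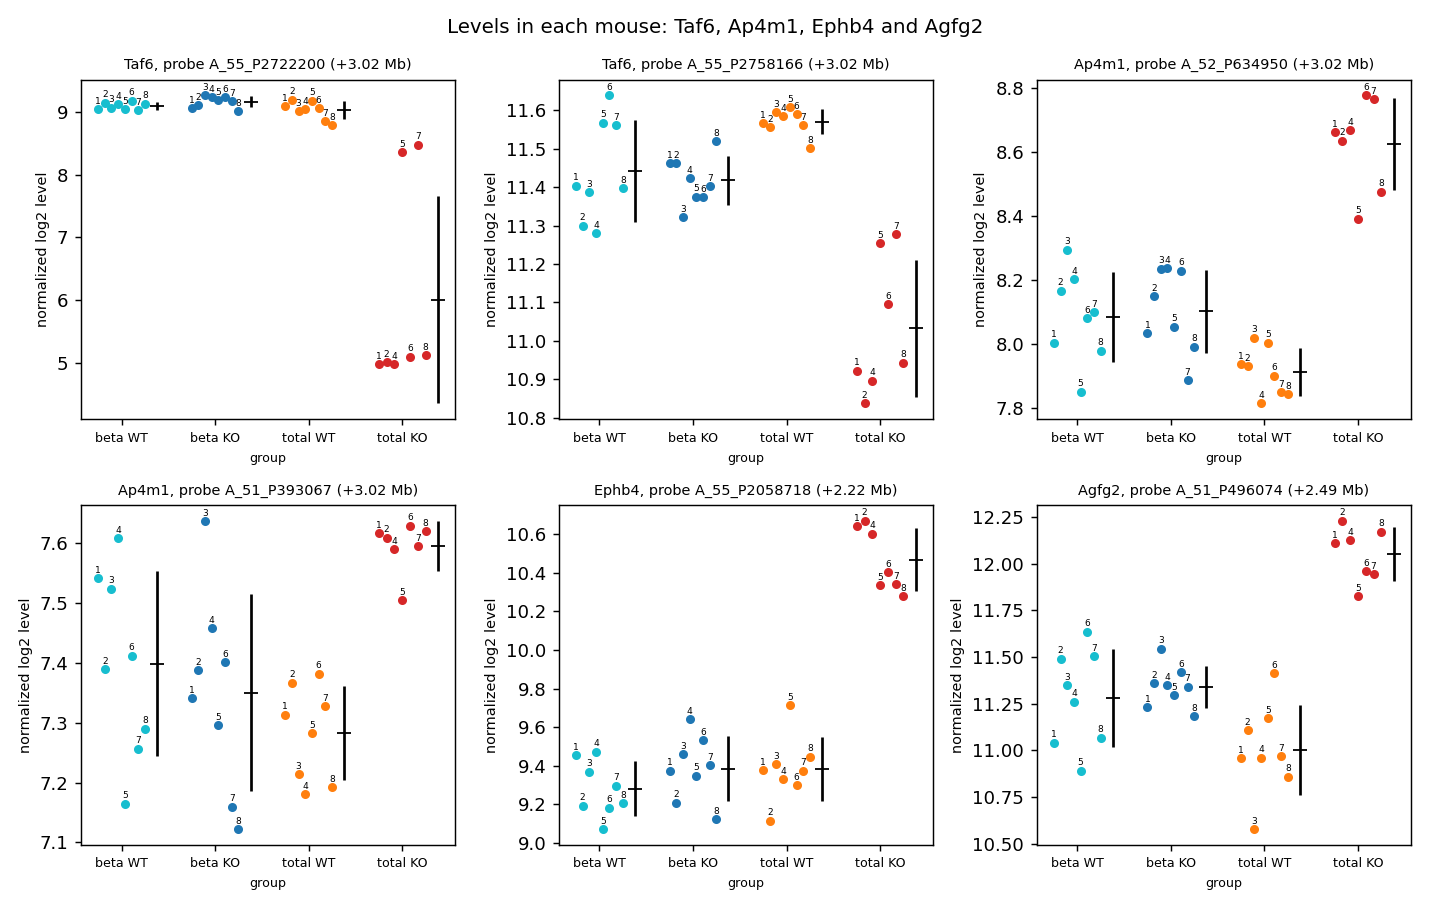
Log2 signal (y axis) of each mouse in the 4 groups for both Taf6 probes, both Ap4m1 probes, Ephb4 and Agfg2, with replicate numbers beside the points and the mean ± SD as bars. Total ChREBP-KO replicates 5 and 7 stand at 8.36 and 8.47 on the Taf6 probe A_55_P2722200, where the other 5 knockout mice stand at 4.98 to 5.12.

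Beyond Taf6 the non-overlapping genes were Zfp157, a zinc finger gene (7.06, 7.44 and 7.65 against 7.81, 8.0 and 8.32, -0.59 ± 0.08), Fam20c, a kinase of secreted proteins (10.74, 10.79 and 10.94 against 11.14, 11.30 and 11.51, -0.51 ± 0.06), and Zfand2a, an AN1 zinc finger gene at 4.35 Mb (10.18, 10.31 and 10.72 against 9.67, 9.89 and 10.13, 0.49 ± 0.09). The adjusted p-values were 3.02e-06, 6.11e-08 and 5.4e-05. A second Fam20c probe was at -0.30 (adjusted p = 0.0306) and lost its call without knockout replicate 1, 4 or 5 or WT replicate 4 or 6 (-0.22 to -0.29), without knockout replicates 1 and 4 together (-0.26, adjusted p = 0.116), without the 4 arrays with pancreas markers (-0.27, adjusted p = 0.0973) and with slide as a fixed block (adjusted p = 0.0781). Zscan21 rose by only 0.17 ± 0.05 (adjusted p = 0.00428), although its groups did not overlap. A further 38 probes of this span were called with overlapping groups, from -0.49 to 0.63. Among them were Gigyf1, a translational repressor (-0.42), Trim56, a ubiquitin ligase of innate immunity (-0.41), both probes of the checkpoint gene Mad1l1 (-0.29 and -0.32), the replicative helicase gene Mcm7 (-0.24) and both probes of Cox19, a copper protein of cytochrome oxidase assembly (0.39). Tsc22d4 was called in opposite directions by 2 probes (-0.49 and 0.19), and Tfr2, the iron-sensing transferrin receptor of hepatocytes, was at 0.40 (adjusted p = 0.000101) on 1 probe and at -0.01 on another.

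On the proximal side from 1 to 5 Mb the called genes were Sbds, a ribosome maturation factor (0.24 and 0.25), Gm6598 (0.27), Auts2 (0.39 ± 0.11, adjusted p = 0.00699, at 4.57 to 5.41 in WT mice and close to background) and Tpst1, a tyrosylprotein sulfotransferase (-0.30 ± 0.06, adjusted p = 0.000511). All of their groups overlapped.

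From 5 to 20 Mb the largest non-overlapping difference of a named gene was that of Aacs, the cytosolic acetoacetyl-CoA synthetase that feeds ketone carbon into lipid synthesis, at -9.60 Mb. It read 10.84, 11.76 and 12.48 in total ChREBP-KO mice against 13.05, 13.58 and 14.34 in WT mice, and 13.19 to 14.57 against 13.19 to 14.64 in the ChREBPβ line. All knockout mice of the total line lay below the other 24, and the signal fell by 1.92 ± 0.23 (adjusted p = 1.49e-07). The difference in ChREBPβ-deficient mice was 0.14 (95% interval -0.32 to 0.59).

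Fbxo21, an F-box protein of ubiquitin ligases at -17.2 Mb, rose on both probes, by 1.38 ± 0.21 (9.71, 9.94 and 10.60 against 8.13, 8.59 and 9.60, adjusted p = 8.72e-06) and by 1.03 ± 0.19, together with Gm19648 between them (0.96 ± 0.19). The knockout mice did not overlap their own WT mice but did overlap the ChREBPβ line, whose mice read 8.79 to 10.31 on the first probe. The histone H4 methyltransferase gene Setd8 (0.45 ± 0.07, adjusted p = 1.58e-05), the position-named probe chr5:124667541-124700029_R (0.43) and the endolysosomal channel gene Tpcn1 (0.38) were the next higher. Lower were Dynll1, a dynein light chain (12.28, 12.64 and 12.91 against 13.21, 13.61 and 13.69, -0.91 ± 0.13), Gm15408 at 14.2 Mb (7.47, 7.59 and 7.85 against 8.23, 8.51 and 9.28, -0.95 ± 0.13), and 2 position-named probes, chr5:152006587-152008784_R (8.31, 8.51 and 9.30 against 9.81, 10.25 and 10.60, -1.61 ± 0.16, adjusted p = 2.32e-09) and chr5:152029557-152030218_R (-1.31 ± 0.14). For Gm15408 and these position-named probes the knockout lay below all other mice, whereas for Dynll1 the WT mice of the ChREBPβ line went down to 12.43.

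**Figure D5:**
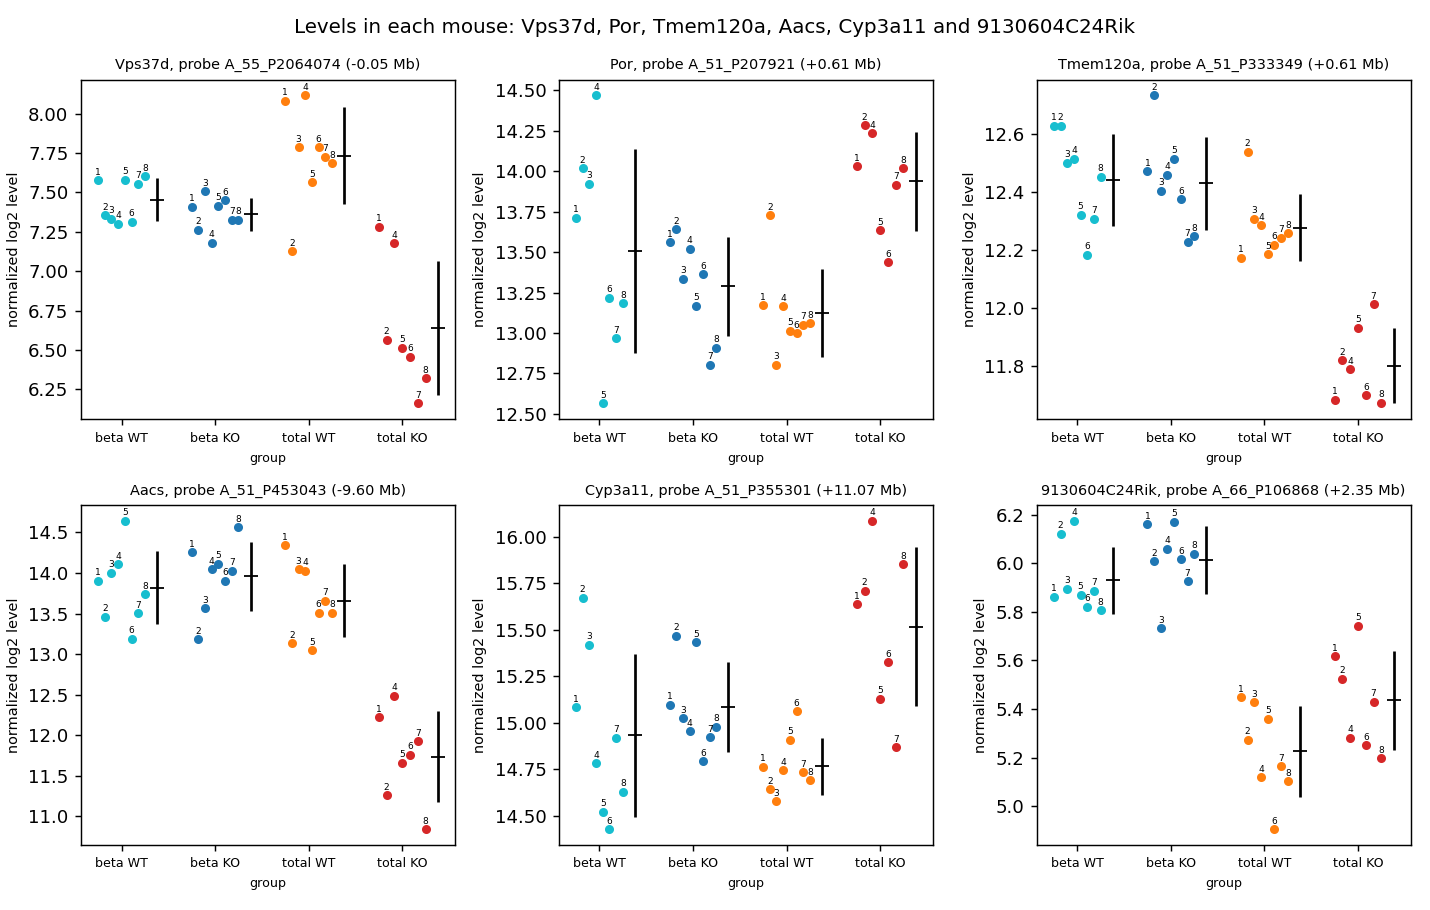
Log2 signal (y axis) of each mouse in the 4 groups for Vps37d, Por, Tmem120a, Aacs, Cyp3a11 and 9130604C24Rik, with replicate numbers beside the points and the mean ± SD as bars. Aacs is at 10.84 to 12.48 in total ChREBP-KO mice and at 13.05 or above in every other mouse, while 9130604C24Rik separates both groups of the ChREBPβ line from the WT mice of the total line.

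All measured Cyp3a genes and most of the measured Oas genes were called in the total line, beside 33.9% of gene names on the array. The 7 measured Cyp3a genes (of 9 listed), enzymes of drug and steroid oxidation, were higher in total ChREBP-KO mice, with a median difference of 0.71 beside 0.01 over all probes. Cyp3a11 read 14.87, 15.64 and 16.08 against 14.58, 14.74 and 15.06 and rose by 0.75 ± 0.16 (adjusted p = 0.000791), and Cyp3a13, which lies apart from the cluster at 2.74 Mb, rose by 0.57 ± 0.15, a call that ended with slide as a fixed block (0.41, adjusted p = 0.111). The knockout and WT ranges overlapped for both. Genes of this family are related in sequence, so their probes may share signal and are uncertain as separate members. Of the Oas genes, which make the activator of the antiviral RNase L or its inactive relatives, 8 of 10 were measured and 5 (62.5%) were lower, with a median of -0.22, while Oas1d (-0.17), Oas1g (-0.21) and Oas2 (-0.08) were not called. Oas1c read 5.84, 6.25 and 6.56 against 6.33, 7.33 and 7.59 and fell by 1.04 ± 0.14 (adjusted p = 9.59e-07), Oas1a fell by 0.74 ± 0.18, and Oas1b was lower on 1 of 3 probes (-0.23, and -0.16 with adjusted p = 0.0853 without knockout replicates 1 and 4).

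Metabolic genes of the liver did not share a direction. Of 31 listed 27 were measured, 26 of them in the window (Ung lies beyond its proximal end), and 12 were called (44.4%, beside 33.9% of gene names on the array). Of these 5 had a higher and 7 a lower called probe, and the median was -0.01. Hpd, an enzyme of tyrosine breakdown, rose by 0.54 ± 0.11 (15.39 to 15.94 against 14.68 to 15.50, adjusted p = 0.000289), and Gusb, the lysosomal glucuronidase, fell by 0.52 ± 0.07 on 1 probe (adjusted p = 1.97e-06) and stood at 0.00 on the other. All 4 probes of Bri3 fell, by 0.75 to 0.78. Sds, the serine dehydratase, was at -0.68 (adjusted p = 0.0477) and at -0.38 (adjusted p = 0.398) without the 4 arrays with pancreas markers, and its relative Sdsl at -0.42 (-0.27, adjusted p = 0.265, without those arrays). Without knockout replicates 1 and 4 Sds (-0.59, adjusted p = 0.137) and Sdsl (-0.37, adjusted p = 0.108) were not called either, and 21 and 6 arrays ended the calls when left out singly. Psph was at -0.33 and lost its call without any of 8 single arrays (largest adjusted p = 0.0963, -0.27 without knockout replicate 8), without knockout replicates 1 and 4 (-0.31, adjusted p = 0.0813) and with the slide block (adjusted p = 0.0654). Of 7 chromatin genes of the interval 6 were measured and 4 were called (66.7%, or 25% of their 16 probes), 2 higher and 2 lower, with a median of 0.09.

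In ChREBPβ-deficient mice no window probe was called. The count was 0 of 876 (limma), beside 0.00277% of all probes, and 43 probes were at an unadjusted p under 0.05, beside 4.98% of all probes. Differences ran from -0.43 (Rfc5) to 0.40 (Mtus2). The ranges did not overlap for 1 probe, AK035359 at 12.7 Mb (beside 0.0222% of all probes), which read 4.91, 5.09 and 5.19 in ChREBPβ-deficient and 5.20, 5.37 and 5.49 in WT mice, a difference of -0.30 ± 0.07 (adjusted p = 0.671). None of the 5 gene lists above had a called member. The effects of the 2 deficiencies were compared by an interaction term, which called 131 window probes (15%, beside 15.1% of all probes) and 41 of 250 within 5 Mb (16.4%). The 2 lines have separate WT mice. Between 1 and 2.5 Mb on the distal side this count was 17 of 63 (27%), with Ephb4 (0.98), Agfg2 (0.99) and Mospd3 (0.84 and 0.82) among them, and between 2.5 and 5 Mb it was 14 of 90.

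The 2 WT groups differed from each other in the window about as often as elsewhere. Of 876 probes 142 were called (16.2%; 63 higher and 79 lower in the total line), beside 17% of all probes (8.12% higher and 8.92% lower), and 10 did not overlap (1.14%), beside 1.89%. Within 5 Mb these were 45 of 250 (18%) and 4. Within 1 Mb 14 of 73 probes were called (19.2%; 6 higher, 8 lower), the largest Upk3b at 0.71. Besides Dtx2 and the genes given above, Gatsl2 (-0.32), Wbscr27 (-0.32), Gtf2i (-0.28), Gtf2ird2 (-0.26), Rfc2 (-0.23) and Nsun5 (0.17) were called there. So was Limk1 (-0.30 and -0.18, the latter on the probe at 0.18 in total ChREBP-KO mice). With slide as a fixed block only Dtx2 and Wbscr27 kept their call. Dtx2, a Deltex ubiquitin ligase at 0.91 Mb, read 10.28, 10.32 and 10.51 in total-line WT mice against 9.81, 9.95 and 10.17 in WT mice of the ChREBPβ line, a difference of 0.37 ± 0.06 (adjusted p = 6.92e-05). Alkbh4, a dioxygenase, was at 0.20 ± 0.05 (8.96 to 9.14 against 8.71 to 8.95), a call that ended without the 4 arrays with pancreas markers (0.18, adjusted p = 0.054) and with slide as a fixed block (0.15, adjusted p = 0.214). Lamtor4, a Ragulator subunit whose promoter holds the E box in 2 places, was at -0.20 ± 0.04 (13.59 to 13.66 against 13.70 to 13.95).

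The transcript 9130604C24Rik, at 2.35 Mb, read 4.90, 5.22 and 5.45 in total-line WT mice against 5.81, 5.88 and 6.17 in WT mice of the ChREBPβ line, a difference of -0.70 ± 0.08 (adjusted p = 9.38e-07). The total-line signals were about as low as those described as close to background for Auts2. The size of the difference ran from -1.13 to -0.35 over the settings run, and its call was kept in all of them. The knockout mice sided with their own lines, at 5.20 to 5.74 and at 5.73 to 6.17. Over all window probes the 15 mice of the total line lay beyond all 16 of the ChREBPβ line for 1 probe, a probe of the splicing factor gene Srsf9 at -19.8 Mb (0.33 ± 0.05 between WT groups, 13.17 to 13.49 against 12.87 to 13.06), beside 0.352% of all probes.

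Farther out, WT mice of the total line were higher for Bhlha15, a transcription factor of pancreatic acinar cells (8.43, 8.70 and 9.81 against 5.98, 6.97 and 9.73, 1.68 ± 0.43, adjusted p = 0.00708), Srrm4, a neuronal splicing factor gene (1.48 ± 0.22, adjusted p = 2.69e-05), Kdm2b, a histone demethylase (0.79 ± 0.21), and Ift81, of ciliary transport (0.55 ± 0.10). Bhlha15 was also called in the total line, at -1.51 ± 0.45 (adjusted p = 0.0106), and this call ended without knockout replicates 1 and 4 (-1.24, adjusted p = 0.0671). WT mice of the total line were lower for Cyp3a57 (-1.06 ± 0.19), Cyp3a25 (-1.02 ± 0.18) and Fbxo21 (-0.91 ± 0.20, adjusted p = 0.00241). With slide as a fixed block the calls of Kdm2b (0.68, adjusted p = 0.1), Cyp3a57 (-0.88, adjusted p = 0.0748), Cyp3a25 (-0.86, adjusted p = 0.0712) and Fbxo21 (-0.66, adjusted p = 0.0861) between the WT groups ended. The position-named probes chr5:123582742-123588117_R and chr5:123582742-123588202_R were lower as well (-0.97 and -0.84), and of these 9 probes only the former was without overlap between the WT groups. Both were called higher in total ChREBP-KO mice (0.75 and 0.66), as were Cyp3a57 (0.76), Cyp3a25 (0.71), Fbxo21 (1.38) and Srrm4 (0.73). There Ift81 was called lower (-0.36), and Kdm2b was not called. The call of Srrm4 in total ChREBP-KO mice ended with slide as a fixed block (adjusted p = 0.17).

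The arrays were scanned on 2 days (15 and 16 arrays, each with all 4 groups), and the comparisons in total ChREBP-KO mice were repeated within each day. All 25 non-overlapping probes of the closest 5 Mb had the same sign on both days, which their lack of overlap fixed in advance. Of the 87 probes called there 86 had the same sign on both days. These were called from the same mice, so neither count is a separate repeat. Taf6 was at -3.25 and -2.73 on A_55_P2722200, Ephb4 at 1.25 and 0.88, Agfg2 at 1.17 and 0.92, Por at 0.83 and 0.76, Vps37d at -0.89 and -1.38 and Aacs at -1.98 and -1.93. Fbxo21 differed more between the days (1.87 and 0.82), as did Srrm4 between the WT groups (1.95 and 1.0).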

How the data were processed

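Liver RNA of 31 mice in 4 groups was labelled with Cy3 and read on Agilent mouse arrays. Per the file headers, the authors' scanner files hold spot intensity values from Feature Extraction (10.10.1.1), with probe coordinates on mm9. The deposited table holds log2 values from the same arrays, which the authors imported with limma and quantile normalized with preprocessCore.

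Median spot signals were log2-transformed, spots with a weight of 1 on at least 26 arrays or on 6 of 1 group were kept (38721 of 59305), values were quantile normalized, and spots of one probe were combined by their median, giving 36059 probes. They correlated with the deposited table at r = 0.999995 over 36057 probes. No kept spot was saturated. The number of arrays limits the precision. One limma model (limma 3.58.1, R 4.3.3) with 4 group means gave knockout against WT in each line, the difference of these effects, and WT against WT, with Benjamini-Hochberg adjustment over all probes at 0.05. Differences are log2, errors are SE, and intervals are 95%. "Did not overlap" means that the ranges of 2 groups were disjoint, and a probe or gene is "called" when its adjusted p was under 0.05. The script was tested on simulated data.

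Genes named were those within 1 Mb, those called without overlap within 5 Mb, the 5 largest in each direction beyond, and members of the lists, with the probe of highest mean first. The members and lists were chosen with earlier results of these data known. Alternatives changed signal, scaling, background, filter, blocks (slide, scan day, replicate number), thresholds and samples. Figures were drawn with matplotlib 3.10.9. Total ChREBP-KO replicate 3 was not analysed here.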

Additional observations from a re-analysis of the deposited data

Results flagged for a closer look

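Among 47 probes of named genes with 4 groups each, 10 of 188 groups (5.32%) held a mouse far from the rest of its group, where chance gives about 1 in 20. Total-line WT replicate 2 was such a mouse for both Por (13.73, the others 12.80 to 13.17) and Tmem120a (12.54, the others 12.17 to 12.31), and this array had the highest mean of exocrine pancreas markers (11.08). Their part in these values was not tested. Total ChREBP-KO replicate 5 stood apart for Ift81 (9.05, the others 8.57 to 8.77) and for Ap4m1 on A_51_P393067 (7.5, the others 7.59 to 7.63). The other total-line mice were knockout replicate 4 for Srrm4 (8.44, the others 9.20 to 9.71) and WT replicate 5 for chr5:137411861-137413010_F (6.63, the others 6.18 to 6.39). In ChREBPβ-deficient mice they were replicate 2 for Ift81 (8.92, the others 8.43 to 8.64) and for Mepce (8.3, the others 8.53 to 8.63), replicate 3 for Abhd11 (12.09, the others 11.92 to 12) and replicate 4 for Srrt (7.76, the others 8.01 to 8.13).

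The effect in the total line differed from that in the ChREBPβ line for 35 probes of named genes by the interaction term (limma, adjusted p from 4.51e-07 for Ephb4 to 0.0472 for Bhlha15). The values below are the log2 effect in the total line minus that in the ChREBPβ line. Within 1 Mb they were -1 for Vps37d, 1.03 for Por, -0.54 for Gatsl2, -0.46 for Tmem120a and 0.18 for Abhd11. The largest of the distal 1 to 5 Mb were -3.08 and -0.51 on the 2 Taf6 probes, 0.7 and 0.36 on those of Ap4m1, 0.99 for Agfg2, 0.98 for Ephb4 and 0.84 for Mospd3. Those of the position-named probes at 1.81 Mb were 0.79 for chr5:137392195-137426421_F and -0.69 for chr5:137411861-137413010_F. Others of that span were Cyp3a13 (0.69), Zfp157 (-0.64), Mepce (0.6), Srrt (0.53), Cux1 (-0.46), Fam20c (-0.46), Zfand2a (0.44), Znhit1 (-0.28) and Zscan21 (0.21).

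Farther out, the effects differed by -2.06 for Aacs, -1.8 for Bhlha15, 1.43 for Fbxo21, 0.92 for Gm19648, -1.01 for Gm15408, -0.62 for Dynll1, 0.47 for Setd8 and 0.41 for Tpcn1. The position-named probes there were chr5:152006587-152008784_R (-1.54), chr5:152029557-152030218_R (-1.22), chr5:123582742-123588117_R (0.72) and chr5:123582742-123588202_R (0.62). Of these 12 probes 8 were also called between the 2 WT groups, by 1.68 for Bhlha15, -0.91 for Fbxo21, -0.62 for Gm19648, 0.47 for Dynll1, -0.20 for Tpcn1, 0.61 for chr5:152006587-152008784_R, -0.97 for chr5:123582742-123588117_R and -0.84 for chr5:123582742-123588202_R. The interaction call of Bhlha15 ended in 28 of 47 settings, 21 of them single arrays left out, and also without the 4 arrays with pancreas markers (adjusted p = 0.0862) and without total ChREBP-KO replicates 1 and 4 (adjusted p = 0.128). That of Abhd11 ended without any of 7 single arrays, without the 4 arrays (adjusted p = 0.0787) and without replicates 1 and 4 (0.13, adjusted p = 0.132), and that of chr5:123582742-123588202_R without the 4 arrays (0.53, adjusted p = 0.0594). With slide as a fixed block the interaction calls of Abhd11 (adjusted p = 0.161), Por (0.0633), Gatsl2 (0.105), Cyp3a13 (0.206), Zscan21 (0.143) and Gm19648 (0.0707) ended. That block also ended the calls between the WT groups of Gm19648 (adjusted p = 0.3965), chr5:152006587-152008784_R (0.24), Tpcn1 (0.111), Fbxo21 (0.0861) and Dynll1 (0.0625). The call of Gm19648 between the WT groups ended without the 4 arrays as well.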

How the results depend on the processing

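The share of window probes called in total ChREBP-KO mice (29.7%) stayed within 1.5 times its value under the alternatives run, with 2 exceptions. These were the run without a filter on spots (19.8%, 243 of 1230 probes, beside 17.5% of all probes) and that with a fold threshold added. With at least 1.5-fold the share was 6.16% in the window (beside 6.08% of all probes), 5.2% within 5 Mb (34.8% before) and 4.11% within 1 Mb (31.5% before). In that setting 11 single genes of the closest 5 Mb were left of 68. At an adjusted p under 0.01, 20.5% were called within 1 Mb. With spots above background on all 31 arrays 44 single genes of 98 were called. In that setting 41% of probes within 5 Mb were called, beside 35.3% of all probes. Leaving out the 4 arrays with pancreas markers raised the share without overlap within 5 Mb from 10% to 16%. Ranges of fewer mice are more often disjoint on any probe, and the share over all probes under that omission is not given. The rise therefore does not show a part of the pancreas signal or a trait of the region. For the WT groups (16.2% in the window, 18% within 5 Mb) the shares were 7.65% and 9.6% at an adjusted p under 0.01, 1.83% and 1.2% with 1.5-fold, and 5.02% and 6.4% with slide as a fixed block, where the WT calls over all probes fell from 6144 to 2098, and 10.7% in the window without a filter on spots. For the difference of effects (15% and 16.4%) they were 8.22% and 9.6% at 0.01, 4.91% and 5.6% with 1.5-fold, and 9.35% in the window without the filter. Over all 56605 probes without the filter, 5387 were called between the WT groups and 4845 for the difference of effects. In narrower windows of 10, 2.5 and 0.5 Mb the total-line shares were 33.2%, 31.4% and 37.5%, beside 29.1% of all probes.

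With any 1 array left out, the shares were 27.3 to 30.3% (window), 31.2 to 35.6% (5 Mb) and 27.4 to 34.2% (1 Mb) in the total line, 13.6 to 17.6% and 15.6 to 20.4% for the WT groups, and 13.2 to 16.6% and 14.8 to 18.8% for the difference of effects. Single genes ranged from 62 to 68, the share without overlap within 5 Mb from 10 to 14%, the share beyond all other mice in the distal 1 to 5 Mb from 11.8 to 13.1%, and the ChREBPβ line had 0 calls throughout. Shares that rest on ranges tend to rise whichever array is left out, since fewer mice have to be separated. Of 200 single-probe results 0 changed direction, 59 kept their call in all settings run, and 62 lost it with slide as a fixed block (13 of 95 in the total line, 33 of 48 between the WT groups and 16 of 57 for the difference of effects). Dim probes are limited by signal over background (local background medians of 15 to 33 intensity units).

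The labels number the replicates in each group, and do not say whether the numbers pair mice. Deviations of same-numbered mice correlated at -0.215 to 0.241 (mean 0.01) between the total-line groups. They correlated at -0.156 to 0.533 (mean 0.218) in the ChREBPβ line and at -0.09 to 0.364 (mean 0.069) between the WT groups. In that order, 1 of 7, 4 of 8 and 2 of 8 mice correlated best with their own number. What lies behind the higher values in the ChREBPβ line was not tested. With the replicate number as a block, 30.3%, 36.4% and 34.2% of probes were called in the total line (window, 5 Mb, 1 Mb), 66 single genes, 0 in the ChREBPβ line, 18% and 20.4% for the WT groups and 16.4% and 18% for the difference of effects. Over all probes the block changed the total-line calls from 10477 to 10549, and 6 of the 200 single-probe results lost their call.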

Other observations

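Pairs of probes with different names on opposite strands and at most 1 kb apart were compared in the window after Taf6 and Ap4m1 had been seen to differ in opposite directions. The window held 54 such pairs, of which 12 (22.2%) had both probes called in total ChREBP-KO mice, 9 of the 12 in opposite directions. Outside the window 148 of 1406 pairs (10.5%) had both probes called, 54 of them (36.5%) in opposite directions. The opposed pairs of the window were Taf6 with Ap4m1 (65 and 173 bases apart), Por with Tmem120a (402), Cops6 with Mcm7 (792), Bri3 with Baiap2l1 (432 and 610), Wsb2 with Rfc5, BY593506 with Rhof, and Eif2ak1 with Aimp2. Bri3, a membrane protein of lysosomes, was at -0.78 and -0.75 where Baiap2l1, an I-BAR protein of actin-rich protrusions, was at 0.30. The pairs that differed in the same direction were Abhd11 with Abhd11os (on both Abhd11 probes) and Arl6ip4 with Pitpnm2. Pairs that share a gene are not independent, and the 2 shares were not tested against each other.

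Tex26, at 14.7 Mb and chosen after its values were seen, read 8.13, 8.80 and 9.18 in total ChREBP-KO mice against 6.99, 7.55 and 8.25 in WT mice and rose by 1.11 ± 0.19 (adjusted p = 3.28e-05).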
